A study of Mus musculus and Ictidomys tridecemlineatus with 36 samples.

Results

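The regions described here are the Neurod1 peaks that lie outside every histone peak in the developing retina of the 13-lined ground squirrel (13LGS) and the mouse. A Neurod1 peak was selected when it shared no base with an H3K4me3, H3K27ac or H3K4me1 peak of the same species, and in 13LGS only the sequences Itri1 to Itri19 were used. A histone peak here means a peak of one of these marks. The authors' methods also name antibodies to H3K27me3 and H3K9me3, and those marks were not considered. This rule kept 656 of 4567 Neurod1 peaks in 13LGS, where the whole list held 4658, and 263 of 4744 in mouse. The members were thus chosen by the measured peak lists themselves, so their number and their lack of histone peaks are descriptions and not findings.

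The lists came from 36 CUT&RUN libraries of whole retina, a method in which an antibody directs a nuclease to cut and release the DNA around a protein. The 13LGS retinas were taken at P5, each biological replicate pooling 2 individuals, and the mouse retinas at P2, each pooling 3 individuals. In 13LGS there were 4 Neurod1, 6 Otx2 and 3 IgG libraries and a single library for each of H3K4me3, H3K27ac and H3K4me1. The latter 3 came from biological replicate 2 only, whereas the 4 Neurod1 libraries were 2 technical repeats of each of 2 biological replicates, so a 13LGS Neurod1 peak of replicate 1 had no histone library of its own pool. In mouse there were 4 Neurod1, 8 Otx2 and 2 IgG libraries and 2 for each histone mark, and in both species Otx2 was profiled with 2 antibodies. The Otx2 antibody labelled RD had 4 libraries in each species. That labelled Atlas had 4 in mouse and 2 in 13LGS, the latter from biological replicate 2 only. The labels give no treatment and no genetic change in either species, and nuclei were taken from snap-frozen retinas. The ages differ between the species, so species and age cannot be told apart. The peaks were called against IgG, and each list but the 3 13LGS histone lists was made jointly from the libraries of its target. No Neurod1 or Otx2 value per library was at hand, so no test over samples was made, and every comparison below sets measured values side by side. The read depth is unknown, since the lists hold no read totals. Percent ranges in parentheses are 95% Wilson intervals and cover counting error over peaks only.

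Neurod1 is a proneural basic helix-loop-helix transcription factor that binds the E-box and acts in neurogenic progenitors and in photoreceptor precursors. Otx2 is a homeodomain factor required for photoreceptor fate. H3K4me3 marks promoters, H3K27ac marks active promoters and enhancers, and H3K4me1 without H3K27ac is usually read as a poised enhancer. Neurod1 peaks were therefore grouped as promoter peaks when they overlapped H3K4me3, as active enhancer peaks when they overlapped H3K27ac without H3K4me3, and as poised enhancer peaks when they overlapped H3K4me1 alone, and the remaining peaks are those described here. Whole retina mixes cell types, so fewer cells carrying a peak and weaker binding per cell cannot be told apart.

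In mouse, some of the strongest of these peaks sat on sequence rich in E-boxes and others did not. The following sequences are the 300 bases at the summit of 4 of the 10 peaks of highest fold, read from the plus strand of GRCm38 (RefSeq), and of the mouse Neurod1 peak with the most E-boxes within 150 bp of its summit, 13. These 5 were picked after their sequences had been seen, to show how E-boxes were arranged. Each is named by its nearest protein-coding gene and the position of the printed window. Capitals mark the E-boxes CAGATG and CAGCTG. The former reads CATCTG on the other strand, and the latter is its own reverse complement.
Rps6kc1, chr1:190872232-190872531: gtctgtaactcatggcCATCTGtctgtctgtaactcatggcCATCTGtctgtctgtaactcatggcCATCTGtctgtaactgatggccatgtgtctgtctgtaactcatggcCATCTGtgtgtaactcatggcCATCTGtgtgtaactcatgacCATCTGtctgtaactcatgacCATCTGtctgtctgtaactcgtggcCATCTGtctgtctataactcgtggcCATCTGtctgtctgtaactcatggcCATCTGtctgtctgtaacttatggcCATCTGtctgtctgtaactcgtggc
Pkib, chr10:57675711-57676010: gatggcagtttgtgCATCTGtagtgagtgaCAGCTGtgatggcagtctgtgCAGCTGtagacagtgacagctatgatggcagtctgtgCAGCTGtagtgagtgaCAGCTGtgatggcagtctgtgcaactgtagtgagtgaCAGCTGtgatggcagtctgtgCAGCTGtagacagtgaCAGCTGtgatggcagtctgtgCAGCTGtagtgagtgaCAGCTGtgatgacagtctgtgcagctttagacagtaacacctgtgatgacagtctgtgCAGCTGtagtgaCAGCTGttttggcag
Snx29, chr16:11430791-11431090: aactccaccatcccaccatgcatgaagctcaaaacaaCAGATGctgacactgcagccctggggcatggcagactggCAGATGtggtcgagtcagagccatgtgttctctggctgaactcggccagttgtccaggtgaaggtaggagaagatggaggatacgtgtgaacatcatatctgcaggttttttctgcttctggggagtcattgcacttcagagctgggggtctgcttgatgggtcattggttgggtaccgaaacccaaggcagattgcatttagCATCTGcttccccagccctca
Scamp1, chr13:94228890-94229189: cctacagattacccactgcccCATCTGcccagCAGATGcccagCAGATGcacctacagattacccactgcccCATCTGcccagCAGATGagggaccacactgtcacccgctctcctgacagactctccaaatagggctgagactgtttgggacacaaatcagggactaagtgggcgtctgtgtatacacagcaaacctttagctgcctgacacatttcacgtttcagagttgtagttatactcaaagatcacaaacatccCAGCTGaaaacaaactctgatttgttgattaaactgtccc
Gm11564, chr11:99815102-99815401: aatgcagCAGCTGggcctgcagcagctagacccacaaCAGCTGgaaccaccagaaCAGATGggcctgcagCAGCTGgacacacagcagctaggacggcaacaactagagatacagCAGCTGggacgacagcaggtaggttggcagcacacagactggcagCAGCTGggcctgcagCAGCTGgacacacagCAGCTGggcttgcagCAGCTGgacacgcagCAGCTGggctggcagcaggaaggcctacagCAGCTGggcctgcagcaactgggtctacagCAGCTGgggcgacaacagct

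The window in *Rps6kc1* matched itself best at a shift of 25 bp, with CATCTG recurring, and the window in *Pkib* at a shift of 74 bp, with CAGCTG recurring. The *Snx29* and *Scamp1* windows held 3 and 6 E-boxes, and fewer of their bases matched at any one shift, 31.9% and 34.4%. The best shift in *Scamp1* was 51 bp, since a short stretch with CATCTG and CAGATG at the start of the window was repeated. Most E-boxes of that window lay there, and a share over the whole window shows such a short repeat poorly. The printed window at *Gm11564* held 12, as did that in *Pkib*. Among the other members of highest fold, *Krtap16-1* had 5 E-boxes within 150 bp of the summit, *Ltbp2* 3, *Col6a3* and *Sgca* 1 each and *Nfkbid* 0.

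The strongest mouse member, chr1:190871921-190872988, lay in an intron of *Rps6kc1*, a gene of the ribosomal S6 kinase family. Its fold over IgG was 33.5 and its −log10 q was 308. It lay 9310 bp from the nearest histone peak, and no Otx2 peak overlapped it. The whole peak held 27 E-boxes, 25.3 per kb, and 63.8% of the bases within 150 bp of its summit were soft-masked as repeat in the reference.

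The member of the third highest fold, chr11:99985240-99986631, had a fold of 12.2, lay 953 bp from the start of *Krtap16-1*, a hair keratin-associated protein gene, and was 78836 bp from any histone peak. The fourth, chr10:57675658-57676279, had a fold of 10.5 and lay in an intron of *Pkib*, which encodes an inhibitor of cAMP-dependent protein kinase. It held 18 E-boxes, 28.9 per kb. The fifth, chr16:11430841-11431090, had a fold of 10.1, lay in an intron of *Snx29*, a sorting nexin gene, and was 485 bp from an H3K27ac peak. None of these 3 overlapped an Otx2 peak.

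The next 5 had folds between 8.09 and 9.19. The peak chr1:90775555-90776156 covered an exon of *Col6a3*, a collagen VI chain, with a Neurod1 fold of 9.19 and an Otx2 fold of 7.89. The peak chr11:94978781-94979062, 2582 bp from the start of *Sgca*, which encodes alpha-sarcoglycan, had a Neurod1 fold of 8.69 and an Otx2 fold of 4.99. The peaks near *Scamp1*, *Ltbp2* and *Nfkbid* had folds of 8.40, 8.16 and 8.09 and no Otx2 peak. Of the 10 highest mouse members 7 were without Otx2, near the share over all members, 187 of 263. The next highest with Otx2 were chr15:80121689-80122118 near *Tab1*, a kinase adaptor gene, with a Neurod1 fold of 7.94, and chr15:81831430-81831976 near *Tef*, a bZIP transcription factor gene, with a fold of 7.61.

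To describe such arrays over all mouse Neurod1 peaks, the repeat identity was taken as the highest share of bases, within 150 bp of the summit, that equal the base a fixed 10 to 100 positions further on. This measure and its limits were chosen after the sequences had been seen, so the counts are a description. Of 263 members, 8 had a repeat identity of at least 60%, and of the 4481 Neurod1 peaks that overlapped a histone peak none did, their highest value being 57.1%. Of these 8, 7 held at least 4 E-boxes. None of the 8 overlapped an Otx2 peak, as was so for 187 of all 263 members. Their folds ran from 2.37 to 33.5. The highest identities were 88.5% in *Pkib*, 76.4% in *Rps6kc1* and 73.0% at *Gm11563*. One peak that overlapped a histone peak came close, an active enhancer peak near *Mid1* with a fold of 11.7, a repeat identity of 57.1% and 9 copies of CAGATG, also without Otx2. In the windows of the same length 2 kb to either side, a repeat identity of at least 60% was reached by 1.52% of the windows around members and 0.870% of those around the other peaks. At the summits themselves soft-masked bases made up on average 15.4% of the window in members and 8.66% in the others, and at least 50% of the window was masked in 7.60% of members and 0.625% of the others. Masking was higher in the flanking windows of both groups, with means of 26.8% around members and 23.3% around the others. There, at least 50% was masked in 20.7% and 15.3% of the windows. The part of repeats in the measured fold was not tested.

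**Figure D1:**
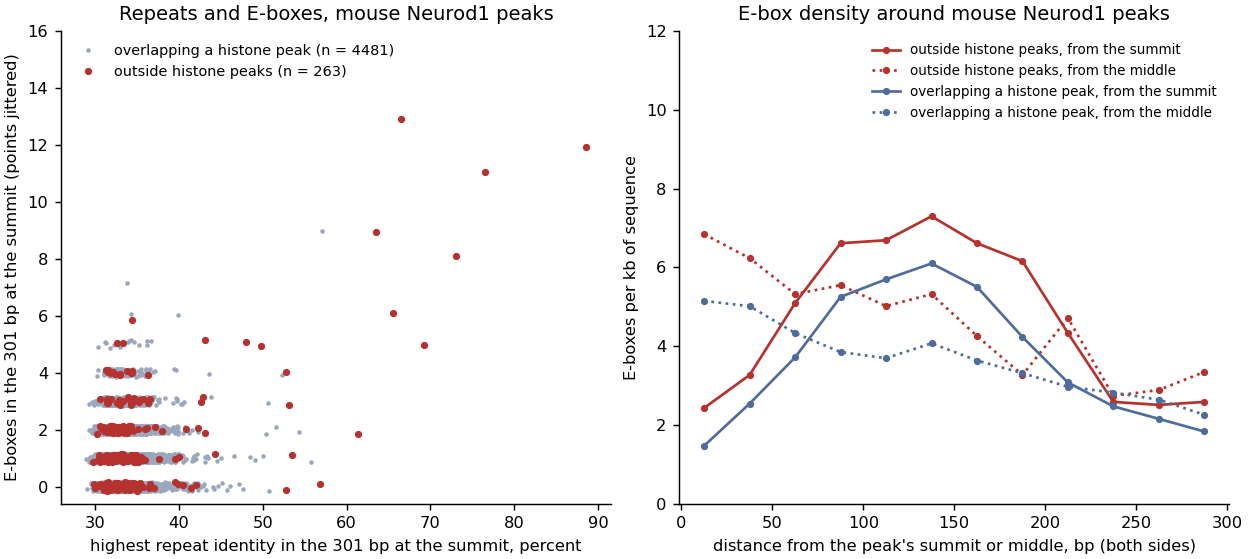
Left, for each mouse Neurod1 peak, the highest repeat identity within 150 bp of the summit in percent (x) and the number of E-boxes (CAGATG or CAGCTG) there (y, jittered), in red for the 263 peaks outside histone peaks and in grey for the 4481 others; every point beyond 60% is red. Right, E-boxes per kb of sequence (y) by distance in bp from the summit (solid) or the middle (dotted) of the peak (x); the solid lines are low at the summit and highest some way off, at 7.30 and 6.10 per kb.

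By the repeat identity of the whole window, which can miss short repeats, most mouse members were not arrays. CAGATG or CAGCTG was present within 150 bp of the summit in 184 of 263 members, 70.0% (64.2 to 75.2), in 73.8% of the Neurod1 peaks with a histone peak and in 73.6% of all Neurod1 peaks. The share was 81.3% at poised enhancer, 77.5% at active enhancer and 59.7% at promoter peaks. Windows 2 kb to either side held one in 34.6% for members and 34.4% for the others, and 30.6% of 32851 RefSeq promoter sequences of 300 bp did. In this window the share at members was therefore near that of all Neurod1 peaks and well above that of their own flanks. Each E-box taken singly, CAGATG was found in 52.1% of members and 52.3% of the others, and CAGCTG in 37.6% and 40.1%.

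Close to the summit, windows with at least 4 E-boxes were a larger share of members. Over whole peaks, which were narrower in members, counts that high were not more frequent by much, while E-boxes per kb were higher in members. Within 150 bp of the summit at least 4 E-boxes were found in 27 of 263 members, 10.3%, against 3.18% of all Neurod1 peaks and 2.77% of those with a histone peak. Over the whole peak the shares were 15.2% of members, 14.1% of all Neurod1 peaks and 14.1% of those with a histone peak. At a fold of 6 or more they were 33.3% of members and 39.5% of the others. Per kb of whole peak, members had a mean of 4.61 E-boxes and a median of 3.80, and the others 3.43 and 3.31. At a fold of 6 or more the means were 7.82 and 4.21 and the medians 5.93 and 3.83. By fold, within 150 bp of the summit, at least 4 E-boxes stood in 5 of 76 members under fold 3, in 7 of 120 from 3 to 4, in 10 of 46 from 4 to 6 and in 5 of 21 at 6 or more. The corresponding shares of the other peaks were 1.32%, 2.17%, 3.15% and 5.07%, lower in each of the 4 ranges of fold. Summit windows with at least 4 E-boxes were mostly those without Otx2, with 12.8% of the 187 members lacking an Otx2 peak and 3.95% of the 76 that overlapped one.

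E-boxes lay beside the summit rather than on it. In members they numbered 2.85 per kb within 50 bp of the summit, 6.81 per kb from 75 to 175 bp and 2.55 per kb from 250 to 300 bp. The other Neurod1 peaks had 2.01, 5.64 and 1.995 per kb at the same distances. Measured from the middle of the peak, members had 6.54 per kb within 50 bp and 3.12 per kb at 250 to 300 bp. The share of members with CAGATG or CAGCTG was 19.4% when only the 50 bp on each side of the summit were searched, against 17.2% of all Neurod1 peaks. Over the whole peak it was 64.6% against 75.1%, lower in members.

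The other motifs searched on both strands were TAATCC, bound by Otx2, AGGTCA, a hexamer bound by nuclear receptors, AGGGGGC, a core of the CTCF site, and the general E-box CANNTG, which includes both E-boxes above. TAATCC stood in 9.89% (6.84 to 14.1) of members and 14.5% of the other peaks, with 13.2% in the 76 members with an Otx2 peak and 8.56% in the 187 without. It was thus scarcer at members than at enhancer peaks, where 15.8% (poised) and 17.3% (active) held it, and not above its share of 12.2% in the members' own flanks. At promoter peaks the share was 8.64%, lower than at members. AGGTCA was found in 20.2% of members and 19.8% of the others, AGGGGGC in 9.13% and 9.33%, and CANNTG in 92.8% and 91.5%. In RefSeq promoter sequences of 300 bp, TAATCC was found in 7.06%, AGGTCA in 16.3%, AGGGGGC in 10.6% and CANNTG in 72.3%. The median GC content of the summit windows was 51.5% in members, 52.8% at poised enhancer, 51.8% at active enhancer and 59.5% at promoter peaks. The median CpG number was 9.97 per kb in members, 13.3 per kb at poised and at active enhancer peaks and 49.8 per kb at promoter peaks. In the members' flanks the medians were 46.8% GC and 9.97 CpG per kb. In GC content the members were thus near the enhancer peaks, and in CpG they were level with their flanks.

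Members were also weaker than other Neurod1 peaks as a group. In 13LGS, the share of Neurod1 peaks outside all histone peaks was 14.4% (13.4 to 15.4) and in mouse it was 5.54% (4.93 to 6.23), and these shares, being the selection itself, are given as a background only. The median fold of 13LGS members was 3.01, with quartiles of 2.63 and 3.40, against 3.47 at poised enhancer, 3.88 at active enhancer and 3.35 at promoter peaks. In mouse the median of members was 3.31, with quartiles of 2.94 and 4.05, against 3.78, 4.32 and 3.31 in the same order. The members' median was thus the lowest of the 4 groups in 13LGS and level with promoter peaks in mouse. The median −log10 q was 2.90 in 13LGS members and 5.87 in the other peaks, and 4.03 and 8.91 in mouse. Members were narrower as well, with median widths of 222 bp against 344 bp in 13LGS and 274 bp against 429 bp in mouse.

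**Figure D2:**
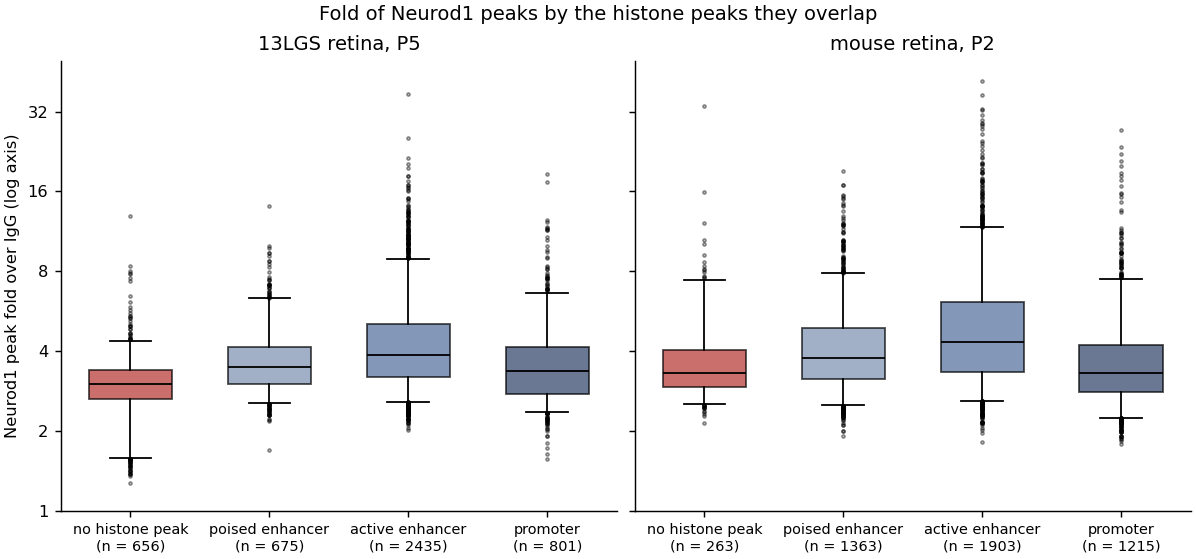
Fold over IgG (log axis) of Neurod1 peaks by the histone peaks they overlap, for 13LGS (left) and mouse (right). Boxes span the quartiles with the median as a line, whiskers the 5th to 95th percentile, and points are peaks beyond them; the members' box is the lowest in 13LGS (median 3.01), and the single mouse member at 33.5 stands far above its group.

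The groups overlapped widely, and high folds were not missing from members. A fold of at least 6 was reached by 9 of 656 members in 13LGS, 1.37%, against 12.4% of the other peaks, and by 21 of 263 in mouse, 7.98%, against 17.6%. A −log10 q of at least 5 was reached by 124 members in 13LGS, 18.9%, and by 108 in mouse, 41.1%, against 57.8% and 72.8% of the others.

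The 10 highest 13LGS members are given by position only, since the 13LGS genome sequence and genes were not analysed here. The highest, Itri16:21661648-21662253, had a fold of 13.0 and a −log10 q of 78.3, lay 6167 bp from an H3K4me3 peak and overlapped an Otx2 peak of fold 3.52. Next came Itri7:755479-756046 with a Neurod1 fold of 8.38 and an Otx2 fold of 2.90, and Itri7:601201-601488 with a Neurod1 fold of 8.05 and no Otx2 peak within 49968 bp. The peaks Itri11:6138578-6138961 and Itri5:126595626-126595895 both had a fold of 7.84, with Otx2 folds of 7.82 and 3.94. The peak Itri11:38815923-38816491, with a fold of 7.56, lay only 441 bp from an H3K4me1 peak. The remaining 4, on Itri13, Itri6, Itri4 and Itri1, had folds from 5.85 to 7.36 and all overlapped Otx2 peaks. In 13LGS 9 of the 10 highest members were therefore with Otx2, against 104 of all 656. In mouse 3 of 10 were, against 76 of all 263. Apart from the member at Itri7:601201-601488, the highest without Otx2 were Itri4:1499003-1499194 at a fold of 5.56, Itri11:33154553-33154764 at 5.44, Itri14:64553111-64553511 at 5.44 and Itri3:199752452-199753153 at 5.33.

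The 13LGS members also held a second kind of peak, with low fold but in some cases a strong q-value, which was not found among mouse members. Of 656 members, 84 had a fold under 2 (12.8%), whereas 8 of the 3911 other 13LGS peaks did (0.205%). In mouse 0 of 263 members and 18 of 4481 other peaks did. Among 13LGS members with a −log10 q of at least 10, 11 of 43 had a fold under 2, against 1 of 1184 other peaks. The member with the strongest q-value of all 13LGS members, Itri15:52543127-52543402, had a fold of 1.60 and a −log10 q of 89.7, and lay 542851 bp from any histone peak. The reads behind each fold and q-value were not part of the lists.

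Some low-fold members were clustered. The limits of fold and −log10 q used here and the clusters were chosen after the values had been seen. On Itri12, 9 members lay within 19004 bp, between positions 73892902 and 73911905, all with folds from 1.27 to 1.83 and −log10 q from 5.31 to 42.2. Of these 9, 8 overlapped Otx2 peaks, whose folds were just as low, from 1.22 to 1.69. Further clusters of 4 members on Itri11 (folds from 1.36 to 1.52) and 3 on Itri7 (1.37 to 1.67), with 10 kb or less between neighbours, also held only folds under 2. Over all 84 low-fold members, 31 overlapped an Otx2 peak, and in 30 of these the Otx2 fold was under 2 as well. Their median gap to a histone peak was 32345 bp, against 6832 bp for the 572 members of fold 2 or more. Blacklisted regions had been removed from the mouse lists, and the methods describe no such step for 13LGS, so this difference in filtering goes along with the low-fold peaks and its part in them was not tested.

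**Figure D3:**
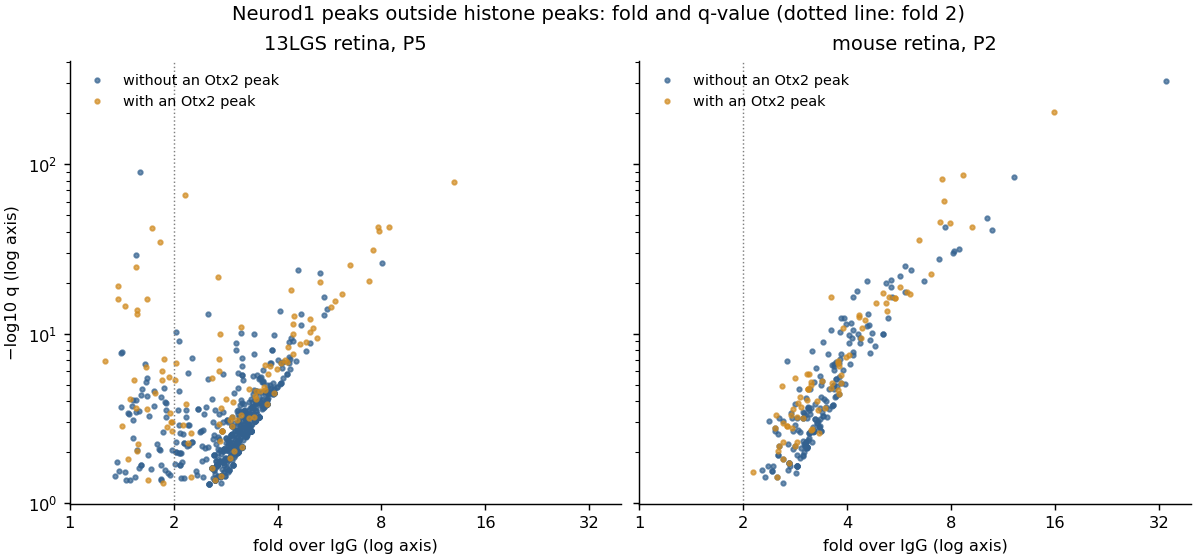
Fold over IgG (x, log axis) and −log10 q (y, log axis) of each Neurod1 peak outside histone peaks, in 13LGS (left, 656 peaks) and mouse (right, 263 peaks), coloured by Otx2 overlap, with a dotted line at fold 2. In mouse the points form 1 rising band, whereas 84 points of 13LGS lie left of the line, reaching a −log10 q of 89.7.

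The gap from a member to the nearest histone peak had a median of 8246.5 bp in 13LGS, with quartiles of 2479 and 27709 bp, and of 5737 bp in mouse, with quartiles of 2009 and 13036 bp. A gap of at most 1 kb was found for 13.9% of 13LGS and 19.01% of mouse members, and of at most 10 kb for 54.3% and 68.4%. Beyond 100 kb lay 57 of 656 and 6 of 263. Otx2 peaks outside all histone peaks, 1762 in 13LGS and 2096 in mouse, were taken as the most similar set, and their gaps had medians of 5305.5 and 4528.5 bp, shorter than those of the members in both species. The nearest histone peak was H3K4me1 for 486 of 656 members (74.1%) and for 198 of 263 (75.3%), and H3K4me1 was also the longest of the histone lists, with 141578 and 135798 peaks.

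**Figure D4:**
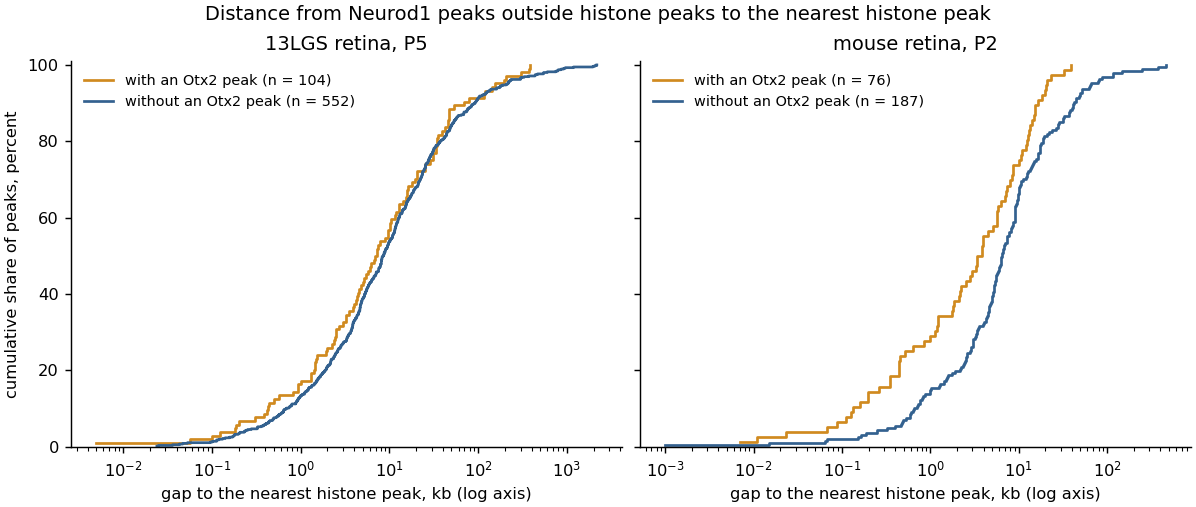
Cumulative share of Neurod1 peaks outside histone peaks (y, percent) by gap to the nearest histone peak (x, kb, log axis), with an Otx2 peak (orange) and without (blue). The 2 lines nearly coincide in 13LGS (medians 7081.5 and 8525.5 bp), and in mouse the orange line lies to the left (3615 and 6425 bp).

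In mouse, members with an Otx2 peak lay closer to histone peaks than those without. Their median gap was 3615 bp against 6425 bp, 28.9% against 14.97% were within 1 kb, and all 76 were within 50 kb, whereas 14 of the 187 without were farther away. In 13LGS the medians were 7081.5 and 8525.5 bp, and 16.3% and 13.4% were within 1 kb.

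At the edge of the rule, the closest members were Itri2:216074045-216074316, 5 bp from an H3K27ac peak with a fold of 2.72, and chr3:136308496-136308737, 1 bp from an H3K27ac peak with a fold of 3.04. The closest peaks on the other side were Itri9:73746829-73747011, which shared 10 bp with a histone peak and had a fold of 2.51, and chr7:135537544-135537763, which shared 2 bp and had a fold of 2.91. The 10 13LGS members with a gap of at most 100 bp had a median fold of 3.37, and the 34 other peaks with an overlap of at most 100 bp had 3.23. In mouse these medians were 3.10 for 9 members and 3.5 for 22 other peaks. The median −log10 q was 4.13 and 3.86 in 13LGS and 3.63 and 7.27 in mouse, in the same order.

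At the far end, the 13LGS members at the largest gaps were Itri1:902205-902438, at 2170385 bp with a fold of 3.35, Itri15:86955-87253, at 2062993 bp, and Itri15:185294-185479, at 1964767 bp. All 3 lay within the first Mb of their sequence, and none overlapped Otx2, as was so for 552 of all 656 13LGS members. The farthest mouse member, chr4:144423608-144423862, was 458895 bp from a histone peak, had a fold of 3.21 and covered an exon of *1700012P22Rik*.

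Of the 6 mouse members farther than 100 kb from histone peaks, 3 lay in the keratin-associated protein cluster of chromosome 11, whose genes encode hair matrix proteins. This cluster holds 16 *Krtap* genes between positions 99614019 and 99993994. All 5 Neurod1 peaks within 50 kb of it were members. None of them overlapped Otx2, as was so for 187 of all 263 mouse members. Each of the 5 had its summit within 1 kb of the start of a protein-coding gene. Besides the peak at *Krtap16-1*, with a fold of 12.2, they lay at *Krtap9-5* (4.09), *Gm11564* (3.39), *Gm11563* (3.31) and *Krtap4-1* (2.86). Within 150 bp of their summits the peaks at *Krtap9-5*, *Gm11564* and *Gm11563* held 6, 13 and 8 E-boxes, with repeat identities of 65.6%, 66.4% and 73.0%. This stretch was singled out after its values were seen.

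A smaller share of members than of other Neurod1 peaks overlapped an Otx2 peak. In 13LGS 104 of 656 members overlapped an Otx2 peak, 15.9% (13.3 to 18.8), against 62.8% of all Neurod1 peaks. The shares were 52.9% at poised enhancer, 69.0% at active enhancer and 90.8% at promoter peaks. In mouse 76 of 263 did, 28.9% (23.8 to 34.6), against 82.1% of all Neurod1 peaks, with 71.5%, 87.0% and 97.8% in the same order. The Otx2 lists took no part in the choice of members. Otx2 peaks outside all histone peaks numbered 1762 on the 13LGS sequences used and 2096 in mouse. The whole Otx2 lists held 27993 and 29115 peaks. Overlap was counted against the whole lists, so an Otx2 peak that touched a histone peak could still overlap a member. The part of the selection rule in the lower share was not tested. The Otx2, Neurod1 and histone lists also share the IgG control.

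The gap in Otx2 overlap remained when peaks of like fold were compared, except among the strongest in 13LGS. At folds from 3 to 4, 6.81% of 279 members and 64.0% of 1452 other peaks overlapped Otx2 in 13LGS, and 22.5% of 120 and 80.2% of 1472 in mouse. At folds from 4 to 6 the shares were 39.1% and 78.8% in 13LGS and 32.6% and 86.3% in mouse. At 6 or more, 8 of 9 members in 13LGS overlapped Otx2, 88.9% (56.5 to 98.0), close to the 90.7% of other peaks, whereas in mouse 10 of 21 did, 47.6% (28.3 to 67.6), against 95.8%. The shares rose with the q-value of the Neurod1 peak. At a −log10 q from 2 to 5 they were 10.7% of members and 58.9% of the others in 13LGS and 26.6% and 76.8% in mouse, and at 10 or more 67.4% (52.5 to 79.5) and 86.8% in 13LGS and 43.1% (31.2 to 55.9) and 91.8% in mouse. Keeping only members whose −log10 q reached 5, the Otx2 share was 44.4% in 13LGS and 36.1% in mouse, and when only histone overlaps of at least 250 bp were counted it was 45.2% and 66.2%. By width, too, the members had the lower shares. Among peaks under 250 bp wide, 10.4% of members and 60.7% of the others overlapped Otx2 in 13LGS, and 28.7% and 77.5% in mouse. Among peaks of 500 bp or more, 56.5% of 23 and 85.0% did in 13LGS, and 35.3% of 34 and 92.6% in mouse.

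**Figure D5:**
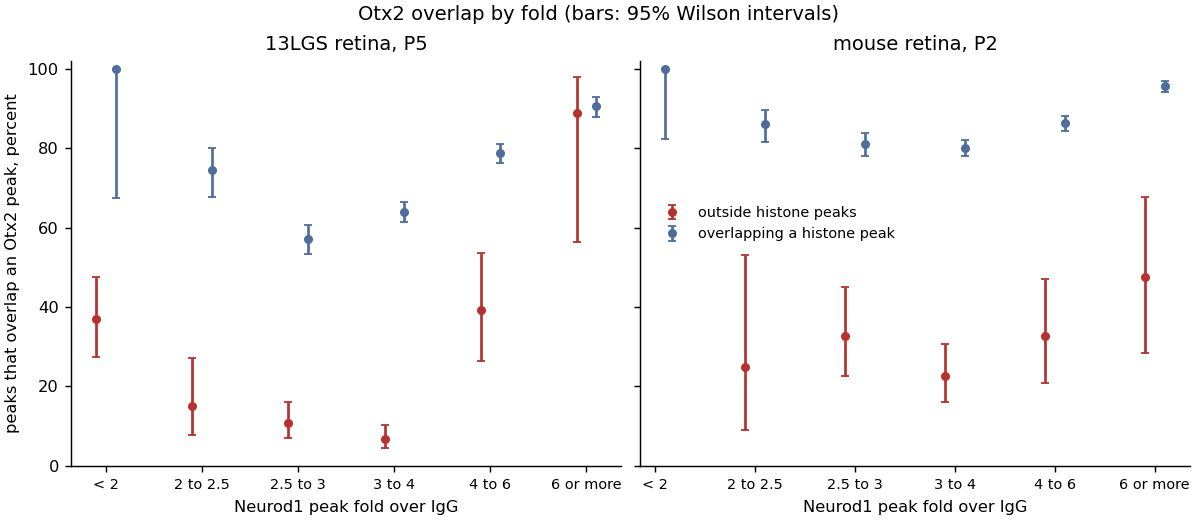
Share of Neurod1 peaks that overlap an Otx2 peak (y, percent) by Neurod1 fold over IgG (x), for peaks outside histone peaks (red) and overlapping one (blue), in 13LGS (left) and mouse (right), with 95% Wilson intervals. Red lies below blue in each range, and only in the highest of 13LGS do the intervals overlap. Mouse had no red peak under fold 2.

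Where an Otx2 peak was present, it was of lower fold than at other Neurod1 peaks. The median Otx2 fold was 2.71 at 13LGS members and 3.84 at the others, and 3.65 and 5.09 in mouse. Without the 13LGS members of Neurod1 fold under 2, it was 3.11 over the 73 that remained. The summits of both factors were close, with a median distance of 43.5 bp in 13LGS and 88 bp in mouse members, against 69 and 65 bp at the other peaks. The median Neurod1 fold of members with and without Otx2 was 3.41 and 3.30 in mouse. In 13LGS it was 2.79 and 3.03 over all members and 3.46 and 3.08 over those of fold 2 or more, as Otx2 overlap was frequent at both ends of the fold range, at 36.9% under fold 2 and 88.9% at 6 or more.

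Mouse members were placed against GENCODE M21 genes. The summit lay between genes in 108 members, 41.1% (35.3 to 47.1), in an intron in 126, 47.9%, in an exon in 16 and within 1 kb of a protein-coding start in 13, 4.94%. Of all Neurod1 peaks 28.7% lay between genes, and the shares were 39.5% at poised and 31.7% at active enhancer peaks. The members' share was nearest to that of the poised enhancer peaks, within its interval. The median distance to the nearest protein-coding start was 20281 bp in members, 30925 bp at poised enhancer and 29511 bp at active enhancer peaks, and 17096.5 bp over all Neurod1 peaks. To the nearest start of any gene it was 13526, 13131 and 14073 bp in the first 3 groups, so the difference from enhancer peaks was not seen there. Of members, poised and active enhancer peaks, 17.5%, 22.5% and 18.97% lay beyond 100 kb of a protein-coding start. Members were spread over 20 chromosomes, with between 1 on X and 39 on chromosome 11, the latter 8.61% of the 453 Neurod1 peaks there.

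The 263 members had 250 different nearest protein-coding genes, of which 239 were nearest to 1 member and 9 to 2, and of which 78 (31.2%) were also the nearest gene of a Neurod1 peak with a histone peak. Only *Auts2* and *Cbfa2t3* were nearest to 3 members. *Auts2*, a chromatin regulator gene of neuronal development, had members at distances from 24778 to 367827 bp with folds from 2.70 to 4.81, among 11 Neurod1 peaks in all. *Cbfa2t3*, a transcriptional corepressor of the ETO family that partners basic helix-loop-helix factors, had members from 10861 to 25496 bp away with folds from 2.61 to 3.97, among 4 in all, and all 3 also lay in an intron of the overlapping *Gm20388*. None of these 6 members overlapped Otx2, as was so for 187 of all 263.

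Lists of retinal genes were held up against the members, 225 genes in all. Of these, 104 were the nearest gene of at least one Neurod1 peak and 5 of a member. These 5 genes took 7 members, 2.66%, against 4.7% of all Neurod1 peaks. Of the 26 photoreceptor transcription factors, 17 were nearest to a Neurod1 peak, 54 peaks in total, and 0 to a member. Of 21 bipolar, 26 amacrine, horizontal and ganglion cell and 20 progenitor and Müller glia genes, 0 had a member, and the lists held 14, 17 and 8 Neurod1 peaks. With members making up 5.54% of all mouse Neurod1 peaks, lists with so few peaks can hold no member without standing apart from the background.

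Of 29 phototransduction genes, 1 had a member and 7 a Neurod1 peak. The member, chr11:69255000-69255251, lay 18058 bp upstream of *Gucy2e*, a retinal guanylate cyclase, with a fold of 3.25, and was the only Neurod1 peak nearest to this gene. Of 30 outer segment, cilium and ribbon synapse genes, 1 had a member and 17 a Neurod1 peak. This member, chr11:78360299-78360599, with a fold of 2.48 and an Otx2 fold of 2.13, was nearest to *Unc119*, which encodes a lipid-binding trafficking protein of photoreceptors, but lay in an intron of the neighbouring *Foxn1*. Of 32 proneural and Notch pathway genes, 1 (*Cbfa2t3*) had a member and 22 a Neurod1 peak. Of 41 axon guidance and adhesion genes, 2 had a member and 17 a Neurod1 peak. They were *Nrxn3*, a neurexin, with a member of fold 2.86 in its intron, and *Slit2*, a guidance ligand, with a member of fold 3.19 at 149591 bp from its start and 148913 bp from any histone peak. The nearest gene need not be the gene a peak acts on.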

How the data were processed

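The authors trimmed reads with cutadapt 3.5 and Trim Galore 0.6.4, aligned them with Bowtie2 to GRCm38 or to a 13LGS assembly, kept reads of high mapping quality with SAMtools 1.12, removed duplicates with UMI-tools and called peaks jointly over the replicates of each target against IgG with MACS2 at q 0.05. Blacklisted and mitochondrial regions were removed in mouse. In the deposited peak lists, the fold is a linear ratio of the pooled signal to IgG, and the q-value is given by the authors as −log10 q. The lowest −log10 q of any list was 1.30, the value of that threshold. Depth and replicate values are unknown, so precision is limited to counting error.

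Overlaps (1 bp), gaps, E-boxes and annotations were computed with Python 3.11.15, numpy, pandas and scipy, and overlaps were checked against bedtools with 0 differences over 1000 intervals. Summits were placed on GENCODE M21 and on the RefSeq sequence of GRCm38. Peaks named are the 10 members of highest fold in each species, the 5 highest with and without Otx2, and those nearest to and farthest from a histone peak. Genes named are the nearest to these peaks, those nearest to 3 or more members, and list genes nearest to a member. Members and gene lists were chosen with earlier results of these data known. No test was run. The 13LGS genome was not analysed here. One mouse member among the 10 of highest fold is counted but not reported here.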

Additional observations from a re-analysis of the deposited data

How the results depend on the processing

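Of 108 values recomputed under other settings, 60 stayed within the limits set and 48 moved. In 13LGS, counting only overlaps of at least 250 bp gave 1955 members, 42.8% of Neurod1 peaks, with a median fold of 3.16, a median gap of 0 bp and 45.2% with Otx2. In mouse it gave 1265 members, 26.7%, a median gap of 0 bp and 66.2% with Otx2, since many peaks are narrower than 250 bp. Comparing the summit only gave 15.9% of peaks and a median gap of 6467 bp in 13LGS, and 7.04%, 3512 bp and 37.1% with Otx2 in mouse. Requiring 1 kb from every histone peak gave 12.4% and 11425 bp in 13LGS and 4.51% and 7693.5 bp in mouse. Keeping histone peaks with a −log10 q of 5 or more, the values were 17.999% of peaks, a median fold of 3.08 and 19.95% with Otx2 in 13LGS, and 422 members, 8.90%, 7041 bp and 37.9% in mouse. Keeping Neurod1 peaks with a −log10 q of 5 or more, they were 124 members, 5.20%, a median fold of 3.81 and 44.4% with Otx2 in 13LGS, and 108 members, 3.20%, 4.33 and 36.1% in mouse. In 13LGS, a fold of at least 2.5 gave 12.2% of peaks, a median fold of 3.16, a gap of 5961 bp and 12.5% with Otx2, and a fold of at least 2, chosen after seeing the data, gave 12.8%, 3.09, 6832 bp and 12.8%. Using all 13LGS sequences gave 15.7%. Keeping Otx2 peaks with a −log10 q of 5 or more, the Otx2 share was 9.604% in 13LGS and 20.9% in mouse, and with the Otx2 summit inside the Neurod1 peak it was 22.1% in mouse. In mouse, the median distance to the nearest start of any gene was 13526 bp. Searching 50 bp on each side of the summit found CAGATG in 9.89% of mouse members and CAGATG or CAGCTG in 19.4%.

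Leaving out a replicate was not possible, because the Neurod1, Otx2 and mouse histone peaks were called jointly over replicates and each 13LGS histone mark had 1 library. No paired analysis was possible because the lists carry no replicate values and no test was run. Depth limits are unknown, and intervals cover counting error only.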

Other observations

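Outside the sequences Itri1 to Itri19, the 13LGS list held 91 Neurod1 peaks on 55 further sequences. Of these, 76 overlapped no histone peak, 83.5% (95% Wilson interval 74.6 to 89.7). A fold under 2 was found in 51 of the 76, their median fold was 1.66, and the largest −log10 q was 138.9. An Otx2 peak overlapped 27 of the 76, 35.5%.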
